A study of Mus musculus with 6 samples.

Results

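The nuclear-encoded genes of the mitochondrial respiratory chain were followed in retinas of postnatal day 6 (P6) mice labelled as null or control for Lhx4, which encodes a LIM-homeodomain transcription factor. Members were taken by name from the whole expression table: every row whose symbol begins with Ndufa, Ndufb, Ndufc, Ndufs, Ndufv, Uqcr, Cox4 to Cox8 or Atp5, and the rows Sdha, Sdhb, Sdhc and Sdhd. This gave 91 of 21995 rows. They comprised 80 structural subunits, of which 36 belong to complex I, 4 to complex II, 8 to complex III, 17 to complex IV and 15 to complex V, and 11 other proteins that carry these names, mostly assembly factors. Ndufa4 was counted with complex IV, to which it was later assigned. Cox4i1 was not analysed here.

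RNA came from 3 null-labelled and 3 control mice of mixed background (C57BL/6J; 129S6), with the retinas of each mouse as 1 library and the pigment epithelium removed. In null mice, 1 allele of Lhx4 was a tdTomato knock-in and the other was floxed (loxP), and Six3-Cre, which is active in the developing retina, deleted the loxP allele there. The genotype of the RNA-seq controls is given only as control. Values are FPKM, fragments assigned to a gene divided by gene length and library total, as deposited by the authors.

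The respiratory chain sits in the inner mitochondrial membrane. Complexes I and II take electrons from NADH and succinate, complex III passes them to cytochrome c, complex IV hands them to oxygen, and complex V, the ATP synthase, uses the resulting proton gradient to make ATP. Most subunits are encoded in the nucleus and imported, while a small core of complexes I, III, IV and V is encoded by mitochondrial DNA. Photoreceptors pack mitochondria into their inner segments and are among the cells with the highest oxygen use in the body, and at P6 most rods are still maturing.

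Some promoters of these genes hold short motifs for NRF1, for ETS factors such as GABPA, or for YY1, factors known to act on respiratory chain genes in mammals. RefSeq promoters on GRCm38.p6, from 250 bases before to 50 bases after each start, were found for 76 of the 91 members. On either strand, the NRF1 core GCATGCGC stood in 12 of these 76 (15.8%, against 3.05% of all genes with a RefSeq promoter), the ETS core CCGGAAG in 17 (22.4% against 9.93%) and the YY1 letters AAGATGGC in 11 (14.5% against 3.19%). The letters TCAAGGTCA of the estrogen-related receptors stood in 2 (2.63% against 0.466%), and CCAAT in 34 (44.7% against 41.1%). The YY1 letters contain ATG, so a match can also lie on a start codon. A match is a run of letters and was not tested as a binding site. The shares over all genes include genes whether or not they are expressed in the retina. The promoters of the 3 members with the smallest p-values in the genotype comparison and of Uqcr11, which holds both an NRF1 and an ETS match, are shown 5′ to 3′ on the gene's strand, with matches to the NRF1, ETS and YY1 letters in capitals.
Ndufa3 (chr7:3617123-3617422, plus strand): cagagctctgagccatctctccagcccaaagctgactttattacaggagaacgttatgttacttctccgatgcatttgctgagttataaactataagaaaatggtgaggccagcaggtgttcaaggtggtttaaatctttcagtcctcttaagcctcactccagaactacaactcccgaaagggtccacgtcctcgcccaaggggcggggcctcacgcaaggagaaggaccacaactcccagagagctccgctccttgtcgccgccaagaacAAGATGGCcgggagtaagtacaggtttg
Atp5j2 (chr5:145191492-145191791, minus strand): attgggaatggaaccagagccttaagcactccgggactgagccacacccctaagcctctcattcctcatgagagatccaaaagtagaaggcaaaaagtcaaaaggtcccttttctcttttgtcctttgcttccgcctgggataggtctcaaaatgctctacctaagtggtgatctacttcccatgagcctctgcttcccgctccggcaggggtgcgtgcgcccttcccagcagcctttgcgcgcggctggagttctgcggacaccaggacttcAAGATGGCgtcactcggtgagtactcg
Ndufb7 (chr8:83566508-83566807, plus strand): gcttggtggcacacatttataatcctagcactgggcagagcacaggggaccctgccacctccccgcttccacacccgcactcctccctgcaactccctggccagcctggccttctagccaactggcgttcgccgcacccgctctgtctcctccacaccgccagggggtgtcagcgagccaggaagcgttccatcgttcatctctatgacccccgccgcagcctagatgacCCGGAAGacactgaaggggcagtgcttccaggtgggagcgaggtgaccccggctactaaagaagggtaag
Uqcr11 (chr10:80406772-80407071, minus strand): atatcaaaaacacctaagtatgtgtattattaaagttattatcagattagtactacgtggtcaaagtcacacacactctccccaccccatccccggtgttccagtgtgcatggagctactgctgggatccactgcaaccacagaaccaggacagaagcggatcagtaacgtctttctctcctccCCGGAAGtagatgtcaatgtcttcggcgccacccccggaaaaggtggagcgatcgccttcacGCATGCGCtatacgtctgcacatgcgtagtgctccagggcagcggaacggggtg
In these windows no match overlapped another. The YY1 letters of Ndufa3 began at base 273 of its 300 and the ETS letters of Ndufb7 at base 231.

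Some facts of the whole series bear on every value. Summed FPKM was 386567 to 428693 in null-labelled libraries and 400512 to 429668 in controls, and FPKM does not keep the reads behind each value. Lhx4 itself was listed at 28.2, 28.3 and 25.8 FPKM in null-labelled libraries, against 17.98, 18.08 and 19.28 FPKM in controls, higher in all 3 null-labelled libraries. A value per gene does not show which exons were read, so it does not check the genotype, and directions below rest on the labels. Rod markers were present in every library, with a summed level of 2361 FPKM or more over the list. Libraries numbered 3 stood apart in both groups: all 15 rod markers were lower there than in libraries 1 and 2 of the same group (median log2 difference -0.72 in null-labelled and -1.28 in control retinas), and all 17 genes of the cell cycle list were higher (1.08 and 1.31). Results are therefore also given without both libraries numbered 3. Ddx3y, a Y-linked gene, was at 0.01 and 0.03 FPKM in null-labelled library 2 and control library 2, while the remaining 4 libraries held 19.2 to 26.6 FPKM.

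Most respiratory chain genes had slightly lower FPKM in null-labelled retinas, and no single member passed the test. Of the 87 members with a mean of at least 0.5 FPKM, 79 were lower and 8 were higher in null-labelled retinas, where 49.1% of all 13175 tested rows were lower. The median log2 difference of the members, null-labelled minus control on the log2(FPKM + 0.5) scale, was -0.12, against 0.00 over all tested rows, and the median ratio of group means was 0.921, or 7.91% lower. Single members ran between -0.33 for Ndufa3 and 0.35 for Ndufaf6, so that none reached a 2-fold difference. In bulk tissue, fewer cells of a type and less RNA per cell cannot be told apart.

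In limma with genotype alone, 0 of the 87 members passed a Benjamini-Hochberg (BH) adjusted p of 0.05, as did 2 of all tested rows (0.0152%). The smallest adjusted p of a member was 0.688, for Ndufa3. At an unadjusted p under 0.05 there were 3 members, Ndufa3, Atp5j2 and Ndufb7, all lower in null-labelled retinas, where 6.81% of tested rows passed that threshold, 2.72% lower and 4.09% higher. No member passed it together with a 2-fold difference, as 0.25% of rows did. With the replicate number as a block, limma again passed 0 members (smallest adjusted p 0.312, background 0.0911%), while 14 had an unadjusted p under 0.05, all lower, against 5.21% of tested rows. The median SD of a member within a group was 0.12 on the log2 scale, as large as the median difference. Over all tested rows the median SD was 0.16. For 39 of 87 members the difference was under 1 standard error, as it was for 7778 of all 13175 tested rows.

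**Figure D1:**
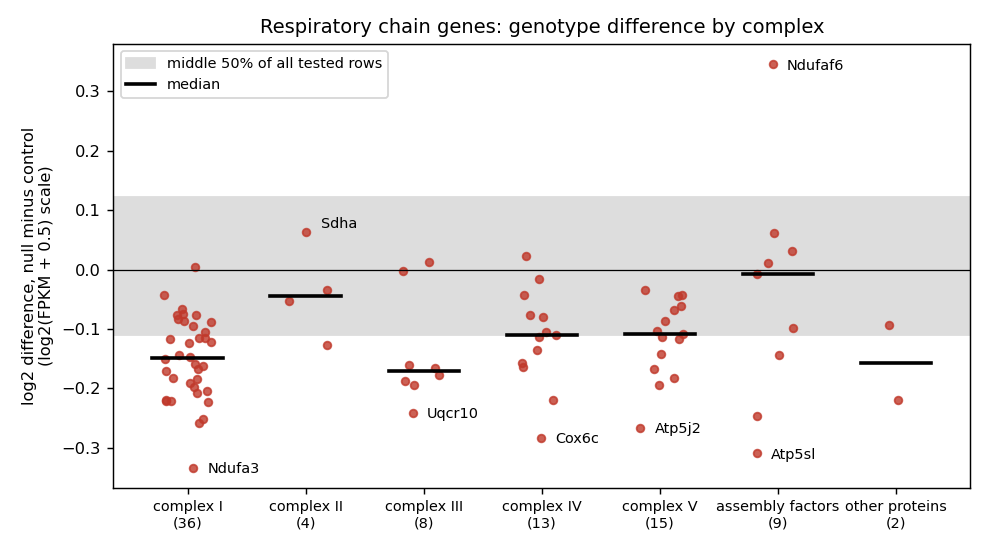
Genotype difference of the 87 tested members, with each point 1 gene, the y axis the log2 difference (null-labelled minus control, log2(FPKM + 0.5) scale) and black lines the group medians. Grey marks the middle 50% of all tested rows. Nearly all subunits of complexes I, III, IV and V lie below 0, while the 9 assembly factors spread on both sides.

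The size of the difference was not the same in each same-numbered pair of libraries. In pair 1, null-labelled 1 against control 1, 78 of 87 members were lower (52.7% of all tested rows), with a median log2 difference of -0.19. In pair 2 it was 82 of 87 (53.5% of rows), with a median of -0.22. In pair 3 only 43 of 87 were lower (41.2% of rows), and the median was 0.01. Over all tested rows the median was -0.02 in pairs 1 and 2 and 0.05 in pair 3. Members thus lay below 0 mainly in pairs 1 and 2, while in pair 3 their median was near 0 and below that of all rows. There were 37 members lower in all 3 pairs (16.6% of rows), 20 of them in complex I, and 1, Ndufaf4, was higher in all 3.

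**Figure D2:**
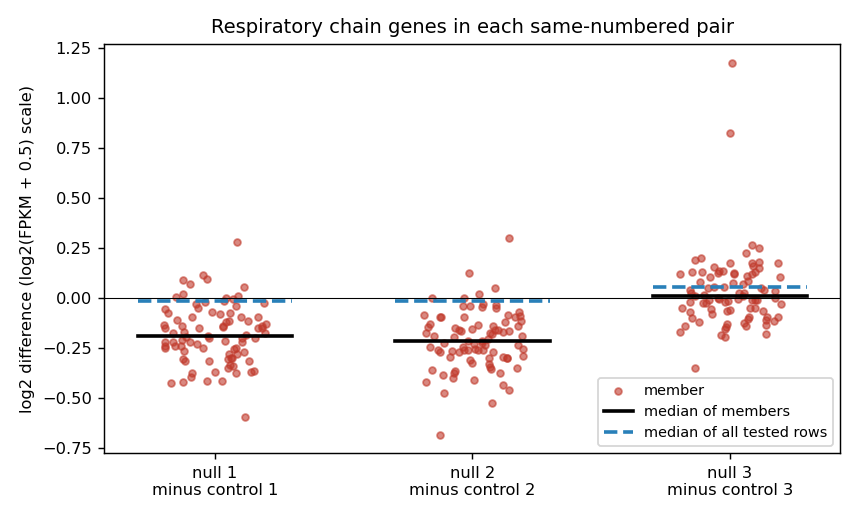
Log2 difference of each tested member in each same-numbered pair (x axis), with the y axis on the log2(FPKM + 0.5) scale, points for genes, black lines for the median of the members and dashed lines for the median of all tested rows. Members lie mostly below 0 in pairs 1 and 2 and are centred on 0 in pair 3.

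Without both libraries numbered 3 the median of the members was -0.19, and 36 members had an unadjusted p under 0.05 in either direction, where 11.6% of all tested rows did. None of these passed the adjusted threshold in limma, as 11 of all rows did (0.0839%). Against libraries 1 and 2 of their own group, members had a median log2 difference of 0.14 in null-labelled library 3 and of -0.08 in control library 3. There 20 members were lower in both groups (35.2% of rows) and 24 were higher in both (35.9%). The differences of the rod markers in these libraries were larger than those of the members, and their part in the pair difference was not tested.

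The groups did not overlap for 13 members, all with the null-labelled libraries below the controls, where 5.53% of tested rows showed this order. Among them were Ndufa1, Ndufa3, Ndufa7, Ndufa12, Ndufb6, Ndufb7 and Ndufb11 of complex I, Uqcr11 and Uqcrb of complex III, Cox6c of complex IV, and Atp5j2 and Atp5o of complex V. Several of these are listed only because their values did not overlap and were named after the values were seen. No member had its null-labelled libraries all above the controls, as 7.88% of rows did.

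Complex I, the NADH dehydrogenase, had 35 of 36 subunits lower, with a median log2 difference of -0.15. Its 7 core subunits, which carry the flavin, the iron-sulfur clusters and the quinone site and descend from bacterial genes, had a median of -0.14, with 6 of 7 lower. The 29 accessory subunits, which surround this core, were all lower, with a median of -0.15. At an unadjusted p under 0.05 there were 2 of 36 subunits in the fit with genotype alone (6.81% of all tested rows in either direction, 2.72% lower) and 8 with the replicate block (12.2% in either direction, 5.21% lower), all lower and none past the adjusted threshold.

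Ndufa3, a small accessory subunit in the membrane, had 153, 152 and 191 FPKM in null-labelled retinas, against 204, 210 and 208 FPKM in controls. The highest null-labelled library, number 3, stayed below all controls. The log2 difference was -0.33 ± 0.11 (SE), with an unadjusted p of 0.019 and a limma BH-adjusted p of 0.688. The gene overlaps Tfpt on the other strand (GRCm38, chromosome 7, 3617373 to 3620327), and since the use of strand in the counting is not given, reads of the pair may be mixed. Ndufb7, which faces the space between the membranes, had 100, 118 and 116 FPKM in null-labelled retinas and 125, 132 and 130 FPKM in controls. Here the null-labelled libraries were again all below, by a log2 difference of -0.22 ± 0.09 (limma BH-adjusted p = 0.725).

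Ndufa1, the most abundant complex I subunit by FPKM, is X-linked and needed for assembly of the complex. It had 202, 227 and 236 FPKM in null-labelled retinas and 244, 274 and 244 FPKM in controls, again without overlap. Ndufa7 had 183, 189 and 225 FPKM against 232, 227 and 235 FPKM in controls, where null-labelled library 3 was just below the lowest control. Ndufv3, an accessory subunit in the NADH-binding arm, had 184, 187 and 225 FPKM in null-labelled retinas and 210, 253 and 225 FPKM in controls, so its groups overlapped.

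Ndufa13, also known as GRIM-19 for a role in cell death, was at 43.2, 49.7 and 43.4 FPKM in null-labelled retinas, against 55.3, 59.6 and 48.0 FPKM in controls. The groups overlapped only in the lowest control, number 3. Ndufb11, which is X-linked and overlaps Rbm10 on the other strand, was at 111, 118 and 117 FPKM in null-labelled retinas and at 144, 155 and 119 FPKM in controls. Control 3 was only just above the null-labelled libraries. Ndufb10 was at 120, 131 and 112 FPKM against 149, 146 and 129 FPKM in controls, with overlap between null-labelled 2 and control 3.

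The exception in complex I was Ndufs1, the largest subunit and carrier of several iron-sulfur clusters. It had 39.4, 42.7 and 44.3 FPKM in null-labelled retinas and 44.4, 42.8 and 38.8 FPKM in controls, a log2 difference of 0.00 ± 0.09, and the groups covered the same range. The level of subunits differed widely within the complex, with mean FPKM over the 6 libraries of 13.2 for Ndufa11 to 238 for Ndufa1 and a median of 97.1.

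Complex II, succinate dehydrogenase, also belongs to the tricarboxylic acid cycle and is the one complex with no mitochondrially encoded subunit. Of its 4 subunits 3 were lower, with a median log2 difference of -0.04, and this median was 0.01 after quantile normalization. Sdha, the flavoprotein that oxidizes succinate, had 102, 91.8 and 64.6 FPKM in null-labelled retinas and 84.5, 88.7 and 70.9 FPKM in controls. Library 3 was the lowest in both groups, and the log2 difference was 0.06 ± 0.18, with wide overlap. Without null-labelled library 1 the sign turned (-0.07). Sdhb, the iron-sulfur subunit, had 53.0, 55.8 and 59.6 FPKM in null-labelled retinas and 58.8, 62.6 and 62.4 FPKM in controls, with the groups overlapping in 1 library of each. The membrane anchors Sdhc and Sdhd, which hold the heme and the quinone site, overlapped fully, with log2 differences of -0.05 and -0.04.

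Complex III, the cytochrome bc1 complex, had 7 of 8 members lower, with a median log2 difference of -0.17. Uqcr11, its most abundant member and the smallest subunit, had 255, 273 and 295 FPKM in null-labelled retinas, against 310, 320 and 311 FPKM in controls. The null-labelled libraries were all below the controls, with a log2 difference of -0.19 ± 0.10 (limma BH-adjusted p = 0.749). Uqcr10, another small subunit, had 191, 212 and 261 FPKM in null-labelled retinas and 252, 266 and 261 FPKM in controls. Its difference came from pairs 1 and 2, while both libraries numbered 3 stood at 261 FPKM. Uqcrh, the hinge protein that contacts cytochrome c1, had 187, 190 and 245 FPKM in null-labelled retinas and 222, 243 and 228 FPKM in controls, where null-labelled library 3 was the highest of all 6.

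Uqcrc2, a core protein related to processing peptidases, was the member of complex III with a log2 difference above 0, at 67.6, 67.5 and 79.3 FPKM in null-labelled retinas and 68.8, 70.9 and 72.2 FPKM in controls. The log2 difference of 0.01 ± 0.09 was -0.05 without both libraries numbered 3. Uqcrfs1, the Rieske iron-sulfur protein, was counted as lower at -0.002 ± 0.11, with group means of 89.4 FPKM in null-labelled retinas and 89.2 FPKM in controls. Cyc1, the cytochrome c1 of the same complex, is not a member by name. It was at 86.1, 92.2 and 88.0 FPKM in null-labelled retinas and at 108, 103 and 90.3 FPKM in controls, with overlap in 1 library of each group. Cycs, which encodes the cytochrome c that carries electrons onward, had a log2 difference of -0.07.

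Complex IV, cytochrome c oxidase, had 13 of its 17 members above the filter, of which 12 were lower, with a median log2 difference of -0.11 that was -0.02 after quantile normalization. Cox8a, its most abundant member and the ubiquitous form of subunit 8, had 559, 603 and 576 FPKM in null-labelled retinas and 664, 656 and 526 FPKM in controls. The lowest and both highest values were controls, and the log2 difference was -0.08 ± 0.13. Cox6c, a small membrane subunit, had 482, 508 and 599 FPKM in null-labelled retinas, against 621, 707 and 602 FPKM in controls. Its groups just failed to overlap, between null-labelled 3 and control 3, and the log2 difference of -0.28 ± 0.13 had a limma BH-adjusted p of 0.725. The locus overlaps Vps13b on the other strand. Cox7c had 382, 397 and 519 FPKM in null-labelled retinas and 422, 489 and 506 FPKM in controls, with null-labelled library 3 the highest.

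Several subunits of complex IV have forms that differ between tissues, and the ubiquitous forms made up most of the FPKM in the retina. Cox6a1, the non-muscle form, took 99.9% or more of the Cox6a pair in every library, and Cox6a2, the heart and muscle form, was at 0.19 FPKM or less. Cox8a took 99.9% or more of its family, with the muscle form Cox8b at 0.41 FPKM or less and the testis form Cox8c listed at 0 in all 6 libraries. Cox7b2, a testis form, was at 0.29 FPKM or less. These 4 low forms were not tested. Cox7a1, the heart and muscle form of subunit 7a, was at 2.41, 1.12 and 4.63 FPKM in null-labelled retinas and at 3.39, 2.10 and 1.77 FPKM in controls, a log2 difference of 0.02 ± 0.41 that was -0.55 without both libraries numbered 3.

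Shares within a family were close between the groups. Cox6b2, described as a testis form, made up 5.76 ± 0.741% of the Cox6b pair in null-labelled retinas and 5.31 ± 1.41% in controls (SD, n = 3 each), with the highest share in library 3 of both groups. Of the summed FPKM of Cox7a1, Cox7a2 and Cox7a2l, Cox7a2 took 57.5, 57.1 and 56.8% in null-labelled retinas and 60.0, 60.0 and 57.8% in controls, and Cox7a2l, which joins complexes III and IV in supercomplexes, took 41.5, 42.5 and 41.9% in null-labelled retinas and 38.9, 39.3 and 41.7% in controls. The Cox7a2 shares did not overlap between the groups, by a narrow margin between null-labelled 1 and control 3, and this was not tested. Ndufa4 had 373, 433 and 466 FPKM in null-labelled retinas and 462, 532 and 388 FPKM in controls, with overlap.

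Some members separated library number 3 more than genotype, shown here for forms of complex IV subunits and for a relative of one. Ndufa4l2, a hypoxia-induced relative of Ndufa4 that is also known from pericytes, had 46.7, 57.5 and 110 FPKM in null-labelled retinas and 50.04, 76.8 and 121 FPKM in controls. Library 3 was the highest in both groups, by 1.07 on the log2 scale over libraries 1 and 2 in null-labelled and by 0.96 in control retinas. Cox4i2, the form of subunit 4 tied to low oxygen and found in the lung, had 22.4, 26.5 and 34.8 FPKM in null-labelled retinas and 22.9, 28.4 and 44.4 FPKM in controls, again with library 3 the highest. Cox6b2 showed the same order, at 12.9, 15.9 and 19.4 FPKM in null-labelled retinas and 13.4, 14.6 and 21.1 FPKM in controls. Of the pericyte markers Rgs5, Pdgfrb, Vtn and Higd1b, none was highest in library 3 of either group. Rgs5 was at 11.7, 12.0 and 8.18 FPKM in null-labelled retinas and at 11.8, 9.65 and 3.75 FPKM in controls. The part of pericytes in these values was not tested. Such an order was not particular to these forms. Atp5e of complex V was also highest in library 3 of both groups, by 0.44 in null-labelled and 0.31 in control retinas. Cox7c was too, by 0.41 and 0.16. At the other end, Sdha and Atp5sl were lower in library 3 of both groups, Sdha by -0.58 and -0.29 on the log2 scale.

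Complex V, the ATP synthase, had all 15 subunits lower, with a median log2 difference of -0.11 that was -0.03 after quantile normalization. The 5 subunits of the F1 head, where ATP is made, had a median of -0.11. Atp5b, the catalytic beta subunit and the most abundant of all 91 members at a mean of 799 FPKM, had 765, 777 and 814 FPKM in null-labelled retinas and 826, 891 and 721 FPKM in controls. The lowest and both highest values were controls, and the log2 difference was -0.04 ± 0.13. Atp5e, the F1 epsilon subunit, had 440, 458 and 609 FPKM in null-labelled retinas and 547, 512 and 655 FPKM in controls, so that each null-labelled library was below the control of its own number while the groups overlapped.

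In the membrane part, Atp5j2, subunit f, had 166, 162 and 187 FPKM in null-labelled retinas, against 194, 234 and 194 FPKM in controls. The groups did not overlap, and the log2 difference was -0.27 ± 0.11, with an unadjusted p of 0.048 and a limma BH-adjusted p of 0.725. Atp5k, subunit e, which takes part in dimer formation, had 359, 412 and 470 FPKM in null-labelled retinas and 414, 468 and 430 FPKM in controls, with the highest value in null-labelled library 3. Subunit c, the proton-carrying ring, is made from 3 genes that encode the same mature protein. Their shares were alike: Atp5g1 took 19.3 ± 1.29% in null-labelled retinas and 19.4 ± 1.16% in controls, Atp5g2 took 33.9 ± 0.997% and 33.3 ± 1.64%, and Atp5g3 took 46.8 ± 0.364% and 47.3 ± 1.04% (SD, n = 3 each).

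The 9 assembly factors and related proteins, which help to build the complexes but are not part of the finished enzymes, lay on both sides of their controls, and their difference from the subunits was not tested. Of these 9, 5 were lower and 4 higher, with a median log2 difference of -0.01 that was 0.03 after scaling to the same total FPKM. Their mean levels, from 6.59 FPKM for Atp5s to 24.9 FPKM for Ndufaf3, were below those of most subunits. Ndufaf6, needed for an early step of complex I assembly, had 7.38, 13.1 and 12.7 FPKM in null-labelled retinas and 7.84, 10.5 and 6.96 FPKM in controls. Null-labelled 1 lay among the controls, and the log2 difference of 0.35 ± 0.24 had a limma BH-adjusted p of 0.798. Ndufaf1, Ndufaf4 and Ndufaf7 had log2 differences of 0.03, 0.01 and 0.06, each under 1 standard error. Among the lower ones, Ndufaf2, Ndufaf3 and Ndufaf5, named here to complete the set, had log2 differences of -0.10, -0.14 and -0.25, and Atp5s had -0.01. Ndufaf5 was one of the 14 members with an unadjusted p under 0.05 in the blocked fit. Atp5sl, the gene now called Dmac2, had 23.1, 22.1 and 19.2 FPKM in null-labelled retinas and 35.2, 28.9 and 18.6 FPKM in controls, where control 3 was the lowest of all 6. Its log2 difference was -0.31 ± 0.22, and it too was among the 14 in the blocked fit.

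Summed over subunits, each complex repeated the picture of its members, weighted toward abundant genes. The structural subunits together reached 12429, 13000 and 14261 FPKM in null-labelled retinas, against 14388, 15333 and 13924 FPKM in controls, with means of 13230 ± 938 and 14548 ± 718 FPKM (SD, n = 3 each) and a ratio of 0.909. Null-labelled library 3 lay above control library 3, so the groups overlapped. The ratio of the group means was 0.895 for complex I, 0.984 for complex II, 0.894 for complex III, 0.906 for complex IV and 0.926 for complex V. Complex I was the one complex whose summed values, as deposited, did not overlap, at 3647, 3877 and 4158 FPKM in null-labelled retinas and 4272, 4584 and 4200 FPKM in controls. The gap between null-labelled 3 and control 3 was narrow. As a share of the summed FPKM of its library, null-labelled 2 (3877 of 386567) lay above control 3 (4200 of 429668), so the groups overlapped on that scale. All members together took 3.24, 3.44 and 3.41% of the summed FPKM in null-labelled libraries and 3.67, 3.81 and 3.33% in controls.

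**Figure D3:**
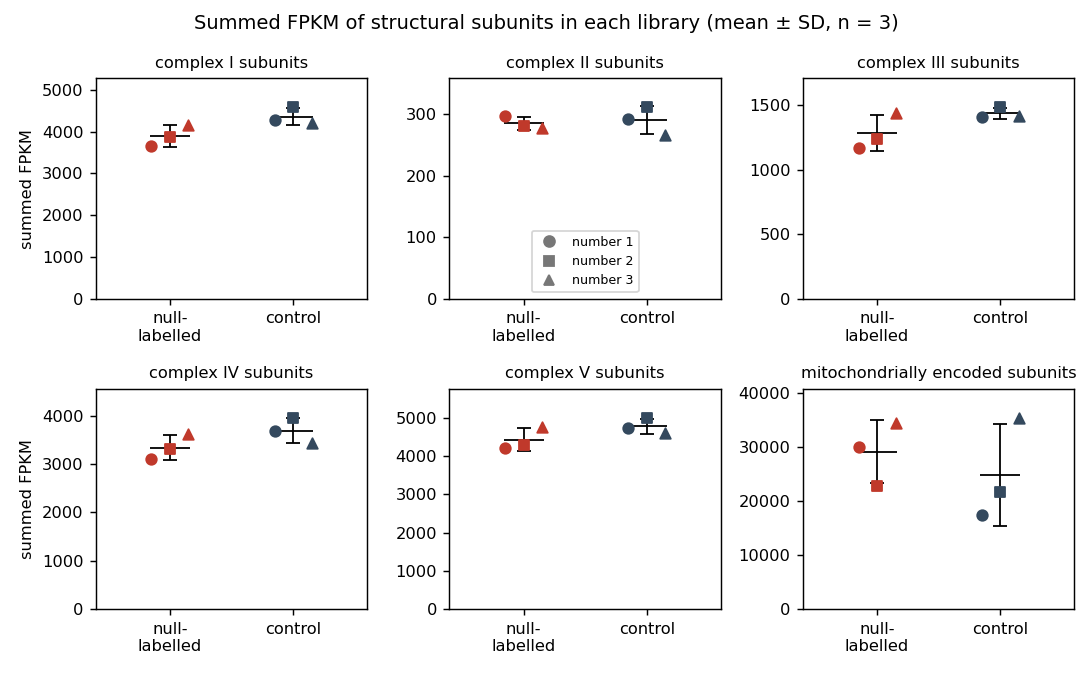
Summed FPKM (y axis, from 0) of the structural subunits of each complex and of the 13 mitochondrially encoded subunits in each library, null-labelled left and control right, with marker shapes for the library number and black bars for mean ± SD (n = 3). Complex I sums lie at 3647 to 4158 FPKM in null-labelled retinas and at 4200 to 4584 FPKM in controls, a narrow gap on FPKM not scaled to the same total.

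Respiratory chain transcripts are short and abundant, and rows with these features were also lower in null-labelled retinas. The summed exon length of the members had a median of 1675 bp, from 360 to 8086 bp, against 4543.5 bp over the 13112 tested rows with a length. Among rows under 1000 bp, the 19 members had a median log2 difference of -0.16 and the other rows -0.11, and among rows of 1000 to 2000 bp the 33 members had -0.14 and the others -0.08. In the band of 100 FPKM and above, the 47 members had -0.15, with all 47 lower, and the other rows -0.07, with 67.4% lower. Other short or abundant rows were thus also lower, and the median of the members lay below that of the other rows in each band. Length and level were banded separately, and the summed length counts all annotated exons of a gene. The bands therefore do not match rows in transcript length, or in length and level together, and give no share for either. What sets the trend with length and level was not tested.

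**Figure D4:**
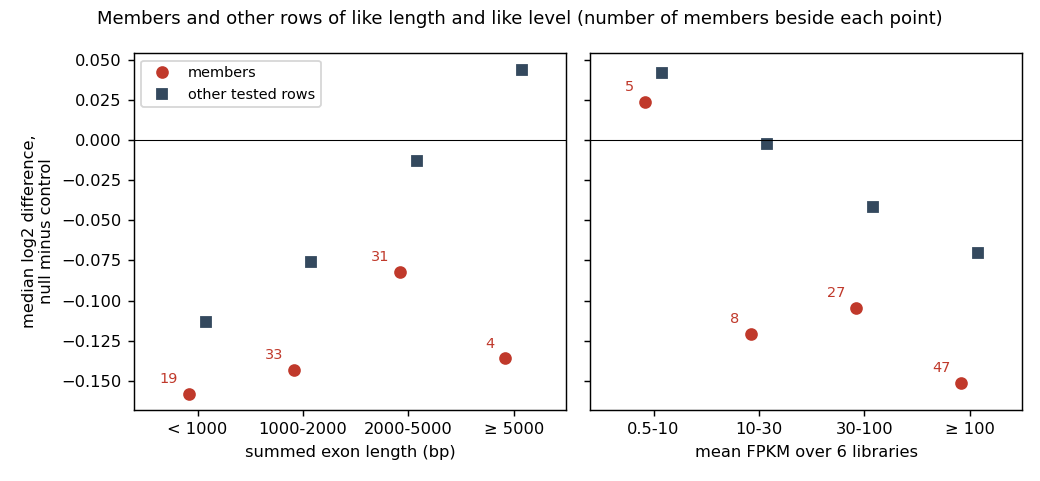
Median log2 difference (y axis, null-labelled minus control) of members, in red with their number, and of other tested rows, in dark squares, by summed exon length in bp (left) and by mean FPKM (right). Both decline toward short and abundant rows, apart from the 4 members of at least 5000 bp and the members of 30 to 100 FPKM, and the members lie below the other rows in every band.

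The cytosolic ribosomal proteins, another set of short and abundant transcripts, were added for comparison after the members' values had been seen. All 76 tested were lower, with a median log2 difference of -0.19, against -0.12 for the members. They were lower in 75, 74 and 61 of 76 rows in pairs 1, 2 and 3. None passed the adjusted threshold in limma (0.0152% of all tested rows did). At an unadjusted p under 0.05 there was 1 of 76 (6.81% of all tested rows, 2.72% lower), and with the replicate block 25 (12.2%, 5.21% lower).

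The 13 subunits encoded by mitochondrial DNA were mostly higher in null-labelled retinas, with 11 higher, a median log2 difference of 0.28 and none past the adjusted threshold (limma). This rested on pair 1, where 1 of 13 was lower and the median was 0.90. In pair 2, 6 of 13 were lower, with a median of 0.04, and in pair 3, 7 of 13 were, with a median of -0.05. Their summed FPKM was 30071, 22894 and 34555 in null-labelled libraries and 17440, 21649 and 35423 in controls, or 7.68, 5.92 and 8.06% of all FPKM in null-labelled libraries against 4.35, 5.26 and 8.24% in controls. The groups overlapped widely, and library 3 was the highest in both. mt-Nd5, a proton-pumping core subunit of complex I, had 1065, 713 and 1006 FPKM in null-labelled retinas and 513, 552 and 923 FPKM in controls (log2 difference 0.52 ± 0.26). mt-Co1, the catalytic core of complex IV, had 5647, 5138 and 6048 FPKM against 5254, 5949 and 5285 FPKM in controls, with full overlap. The split of reads among neighbouring mitochondrial genes is uncertain: mt-Atp8 was listed at 4259 FPKM or more and mt-Atp6, which overlaps it, at 34.8 FPKM or less. Values of mt-Atp8, a row of 204 bp, were 12863, 8248.5 and 16030 FPKM in null-labelled and 4259, 6017 and 17608 FPKM in control libraries. This 1 row was thus a large part of each sum and of its spread. mt-Co2 and mt-Co3, at 17.9 and 5.59 FPKM or less beside mt-Co1, are as uncertain, and all of these count among the 13.

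Mitochondrial transcripts take this share of the summed FPKM of every library, which is divided by gene length and is not a share of reads. FPKM was therefore also scaled to the same total without them. The median of the members was then -0.06 against 0.06 over all tested rows, with 18 of 87 members higher. Scaling to the same total with all rows gave 13 members higher, and quantile normalization gave 21, with a median of -0.06 against -0.00 over all rows. The direction of single members with small differences therefore depends on the scale, while the median of the members stayed below that of all rows under each of these.

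The wider mitochondrial program was more mixed, in lists not matched to the members in transcript length or level. Over all tested rows the median log2 difference was 0.04 at a mean of 0.5 to 10 FPKM and -0.08 at 100 FPKM and above. Of 19 tested regulators of mitochondrial biogenesis 9 were lower, with a median log2 difference of 0.00. Ppargc1a, the coactivator PGC-1alpha, had 6.12, 3.44 and 3.42 FPKM in null-labelled retinas and 3.59, 4.03 and 2.86 FPKM in controls, a difference led by null-labelled library 1. Nrf1 and Gabpa, whose motifs stand in the promoters above, had log2 differences of -0.12 and 0.08, and Tfam, which packages and transcribes mitochondrial DNA, had 0.08 ± 0.26. Polrmt, the mitochondrial RNA polymerase, had 13.6, 15.6 and 14.6 FPKM in null-labelled retinas and 18.9, 16.6 and 28.1 FPKM in controls, without overlap (log2 difference -0.48 ± 0.19, limma BH-adjusted p = 0.701).

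The tricarboxylic acid cycle had 11 of 16 genes lower, with a median of -0.05 and none at an unadjusted p under 0.05. Assembly factors outside the naming rule had 26 of 42 lower, with a median of -0.07. Ecsit, a complex I assembly factor, was at 13.0, 12.6 and 10.9 FPKM in null-labelled retinas and at 16.9, 16.0 and 13.4 FPKM in controls, without overlap (limma BH-adjusted p = 0.695). Of 18 other proteins of the mitochondrial membranes 10 were lower, with a median of -0.02. Phb2, a prohibitin, was at 80.1, 81.2 and 78.4 FPKM in null-labelled retinas against 98.7, 91.3 and 88.8 FPKM in controls, while Tomm20, a receptor for imported proteins, was at 38.8, 37.5 and 43.8 FPKM in null-labelled retinas against 34.3, 36.5 and 31.1 FPKM in controls, so that these lay on opposite sides of their controls. Neither passed the adjusted threshold.

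**Figure D5:**
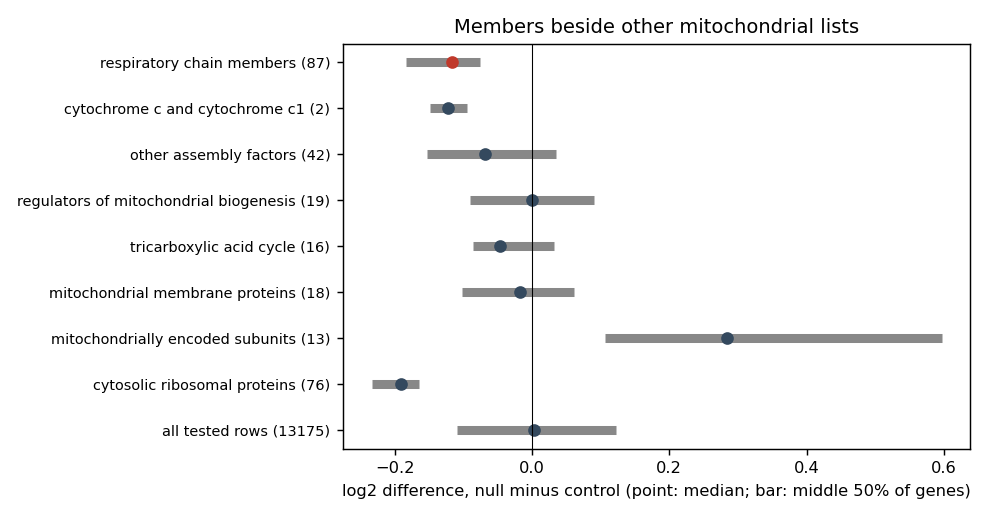
Median (point) and middle 50% (bar) of the log2 difference, null-labelled minus control (x axis), for the 87 tested members and for other gene lists, with the number of tested genes in brackets. Members lie at -0.12, ribosomal proteins at -0.19, biogenesis regulators at 0.00 and mitochondrially encoded subunits at 0.28. The lists were not matched in transcript length or level.

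Rod markers were also mostly lower in null-labelled retinas. Of 15 rod markers 13 were lower, with a median log2 difference of -0.16, and their summed FPKM was 2657 to 3884 in null-labelled and 2361 to 4946 in control libraries. In pairs 1 and 2, 14 and 15 of these 15 were lower, and in pair 3 only 2 were, with a median of 0.21, where the members stood at 0.01. Of 14 bipolar cell markers 8 were lower, with a median of -0.10, and their summed FPKM did not overlap between the groups, at 554 to 634 in null-labelled and 639 to 736 in control libraries. That gap was narrow and rests on FPKM as deposited. Of 9 tested cone markers 8 were higher, with a median of 0.15. The remaining one, Arr3, named after its values were seen, had a log2 difference of -1.40 and passed with the replicate block (limma BH-adjusted p = 0.010) but not with genotype alone. All 8 tested Muller glia markers and all 9 ganglion cell markers were higher, with medians of 0.13 and 0.11, as were 7 of 10 amacrine cell markers, with a median of 0.05. Markers of tissue that dissection could leave were low: the summed FPKM of the striated muscle list was 10.3 to 19.2 in null-labelled and 13.0 to 14.5 in control libraries, that of the pigment epithelium list 11.2 to 32.7 in null-labelled and 10.6 to 29.0 in control libraries, and that of the lens and cornea list 2.37 to 18.5 in null-labelled and 2.52 to 5.06 in control libraries, with Krt5 at 0 in all. The muscle list holds the members Cox6a2, Cox7a1 and Cox8b. The part of any of these cells in the members' values was not tested.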

How the data were processed

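RNA from the retinas of 6 P6 mice was sequenced as paired ends. Per the labels, the authors mapped reads with TopHat2 and estimated abundance with Cufflinks on GRCm38, and deposited the values as FPKM. The sources used here do not give tool versions, the annotation or whether strand was used. FPKM is relative to the mapped fragments of a library, so abundant transcripts lower all others, and overlapping genes and close copies are uncertain. Steps of whole reads were not recovered: at most 7.83% of low rows shared the commonest ratio between a pair of libraries. The study gives its sequencing depth only as a range over libraries, so the reads behind each value are unknown and no count test was run.

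The table held 21995 rows, of which 172 shared 78 names and 27 had dates for names. The 13175 rows averaging 0.5 FPKM or more were fitted as log2(FPKM + 0.5) in limma 3.58.1 (R 4.3.3), genotype being the sole term and the variance following a trend on the mean, two-sided, BH-adjusted over all tested rows. A fold on this scale understates low genes. Summaries used Python 3.11.15 with pandas 2.3.3. The fit was tested on simulated data, with seeded changes larger than that of any member and noise drawn independently for each library. It therefore does not cover differences as small as those of the members, or libraries that stand apart. Exon lengths and positions came from GENCODE on GRCm38, which matched all 91 members.

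Both groups carry the numbers 1 to 3. After removal of group means, same-numbered libraries correlated at 0.394, 0.260 and 0.675, so a fit with the replicate number as a block is given where it moves a count. Null-labelled 1 with control 2 and null-labelled 2 with control 1 correlated at 0.269 and 0.377, and pairs of a library 3 with another at -0.391 to -0.569. The labels do not say what a number marks.

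Named members were the 3 most abundant of each complex, the 8 smallest p in each direction, isoform families, Sdha to Sdhd, and set context genes. Some items are not reported here. The members and lists were chosen with earlier results of these data known. Settings tried were a pseudocount of 0.1 or 1, filters at 0 or 2 FPKM, scaling by quantile normalization, by total or by the 75th percentile, array weights, a fit lacking the trend, the block, and each library left out. Leaving out both libraries numbered 3, scaling without mitochondrial rows and the ribosomal list were added after seeing the data.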

Additional observations from a re-analysis of the deposited data

How the results depend on the processing

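No member passed the adjusted threshold under any of the 18 alternatives in limma. Members at an unadjusted p under 0.05 numbered 3 with genotype alone, 14 with the replicate block, 36 with array weights (12.7% of all tested rows) or without both libraries numbered 3 (11.6%), and 1 with the same 75th percentile, the same total FPKM with or without mitochondrial rows, quantile normalization or no trend. Leaving out 1 library gave 0 to 19 (0 without control 2, 12 without control 3, 19 without null-labelled 3, 1 without either library numbered 1). For the fits with 1 library left out, and for the settings that gave 1 member, the share of all tested rows was not taken. Those counts therefore do not set the members against other rows. Members higher in null-labelled retinas were 8, but 13 at the same total, 18 without mitochondrial rows, 21 after quantile normalization, 5 with array weights, and 5 to 15 with a library left out (5 without null-labelled 3, 15 without control 2). The members' median of -0.12 was -0.18 with array weights and -0.19 without both libraries numbered 3. Without these, the medians were -0.16 for complex II, -0.22 for complex IV and -0.18 for complex V. For complex IV it was -0.017 after quantile normalization, -0.21 with array weights and -0.22 to -0.053 with a library left out (the lowest without null-labelled 3). For complex V it was -0.030 after quantile normalization and -0.048 scaled without mitochondrial rows. Over all rows 2 were called, 9 without a filter, 12 with the block, 11 without both libraries numbered 3, and 0 to 5 with a library left out. The block changed no adjusted call of a member.

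Signs turned for genes with small differences and for some with larger ones but a wide spread, such as Ndufa4l2 (-0.22 ± 0.39, SE) and Ppargc1a (0.24 ± 0.23). The cause was not tested. After quantile normalization these were Sdhc (0.0066), Sdhd (0.0081), Cox8a (0.040), Cox7c (0.0030), Atp5b (0.034), Atp5k (0.012), Cox7a1 (-0.031), Cox6a1 (0.014), Atp5g2 (0.021), Atp5g3 (0.013), mt-Co1 (-0.11) and mt-Cytb (0.15). At the same total they were Sdhd (0.0061) and Cox6b2 (0.024), and at the same 75th percentile Cox6b2 (0.0051). Scaled without mitochondrial rows they were Sdhc (0.0085), Sdhd (0.025), Atp5b (0.016), Cox6b2 (0.043), Cox7b (0.018) and mt-Cytb (0.0048). With array weights they were Uqcrc2 (-0.031), Cox7a1 (-0.23), Ndufs1 (-0.062), Tfam (-0.027) and mt-Co1 (-0.030). Without both libraries numbered 3 they were Uqcrc2 (-0.048), Cox7a1 (-0.55), Ndufs1 (-0.088), Cox6b2 (0.035), mt-Co1 (-0.054) and mt-Co2 (0.15). Leaving out 1 library gave log2 differences of Sdha -0.072 to 0.26, Sdhc -0.13 to 0.014, Sdhd -0.11 to 0.019, Atp5b -0.13 to 0.024, Atp5k -0.18 to 0.011, Ndufaf1 -0.037 to 0.074, Uqcrc2 -0.064 to 0.052, Ndufaf4 -0.00047 to 0.027, Cox7a1 -0.39 to 0.44, Ndufs1 -0.051 to 0.051, Cox4i2 -0.37 to 0.11, Cox6b2 -0.16 to 0.18, Cox7b -0.097 to 0.032, Ndufa4l2 -0.58 to 0.10, Atp5g2 -0.14 to 0.0044, Cycs -0.14 to 0.0065, Ppargc1a -0.012 to 0.37, Tfam -0.19 to 0.24, mt-Nd1 -0.055 to 0.43, mt-Co1 -0.027 to 0.091, mt-Co2 -0.54 to 0.35 and mt-Co3 -0.20 to 0.35. Since FPKM does not keep read counts, precision rests on the spread between 3 animals a group.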
